A study of Mus musculus with 6 samples.

Results

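The chaperonins described here are the 8 subunits of the cytosolic folding machine TRiC, encoded by Tcp1, Cct2, Cct3, Cct4, Cct5, Cct6a, Cct7 and Cct8, and the mitochondrial pair Hspd1 and Hspe1. Members were all probes whose platform annotation gives 1 of these 10 symbols, which selected 15 of the 45281 probes on each array, or 10 of 19057 named genes. The series concerns N-Me, an enhancer of the proto-oncogene Myc bound by NOTCH1, and compared total RNA from 6 C57 BL6 mice on Illumina bead arrays. In the WT group, 3 wild-type mice received the vehicle, corn oil. In the KO group, 3 N-Me knockout mice received tamoxifen in corn oil at 3 mg/kg. Injections were intraperitoneal in both groups, and the animals were processed at 40 h. Genotype and tamoxifen changed together and cannot be told apart. Tissue, age and the source of the recombinase are not given in the labels. Each array is labelled as a separate biological replicate.

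Chaperonins are hollow double-ring machines that enclose a protein chain and let it fold with energy from ATP. TRiC, also called CCT, builds each ring from 8 different subunits and is required for the folding of actin and tubulin. HSP60, encoded by Hspd1, folds proteins imported into the mitochondrial matrix, and HSP10, encoded by Hspe1, is the lid that closes its chamber. In growing cells the demand for such folding rises with protein synthesis, and chaperonin genes appear in many collections of MYC-bound genes. In mammals Hspd1 and Hspe1 lie head to head and share the DNA between their starts.

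Promoter sequence was available from RefSeq (build GRCm38.p6) for 9 of the 10 genes, Cct4 being the exception, in 12 windows of 300 bases. Each window was searched on both strands for the E-box CACGTG, which MYC with MAX can bind, for the heat shock element cores TTCNNGAA and GAANNTTC, and for TGCAAT, a C/EBP-type half-site. The 250 bases before the start are shown for genes in which a search gave the matches described below and for Cct3, a called gene in which none was found. Capitals mark every match.
Hspe1, chr1:55087898-55088147, plus strand: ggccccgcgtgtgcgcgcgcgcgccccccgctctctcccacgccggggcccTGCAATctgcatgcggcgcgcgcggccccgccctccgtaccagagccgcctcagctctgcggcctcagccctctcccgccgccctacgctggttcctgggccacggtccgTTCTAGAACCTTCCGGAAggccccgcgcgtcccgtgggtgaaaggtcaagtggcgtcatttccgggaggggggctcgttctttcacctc
Hspd1, chr1:55088244-55088493, minus strand: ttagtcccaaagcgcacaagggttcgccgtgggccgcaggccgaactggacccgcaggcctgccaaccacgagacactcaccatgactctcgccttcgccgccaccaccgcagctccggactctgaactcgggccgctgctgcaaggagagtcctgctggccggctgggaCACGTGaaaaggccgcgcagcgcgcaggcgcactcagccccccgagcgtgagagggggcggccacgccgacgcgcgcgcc
Cct5, chr15:31601847-31602096, minus strand: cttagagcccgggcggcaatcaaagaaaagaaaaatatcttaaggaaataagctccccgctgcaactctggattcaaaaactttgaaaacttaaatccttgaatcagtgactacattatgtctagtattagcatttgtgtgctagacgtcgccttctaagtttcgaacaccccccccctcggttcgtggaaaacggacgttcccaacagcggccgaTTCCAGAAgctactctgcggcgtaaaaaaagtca
Cct2, chr10:117063376-117063625, minus strand: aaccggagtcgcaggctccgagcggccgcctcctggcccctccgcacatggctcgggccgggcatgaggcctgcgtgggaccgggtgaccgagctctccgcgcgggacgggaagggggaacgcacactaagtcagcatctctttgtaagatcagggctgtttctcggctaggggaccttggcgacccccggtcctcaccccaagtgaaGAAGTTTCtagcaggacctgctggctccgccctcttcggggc
Cct3, chr3:88296885-88297134, plus strand: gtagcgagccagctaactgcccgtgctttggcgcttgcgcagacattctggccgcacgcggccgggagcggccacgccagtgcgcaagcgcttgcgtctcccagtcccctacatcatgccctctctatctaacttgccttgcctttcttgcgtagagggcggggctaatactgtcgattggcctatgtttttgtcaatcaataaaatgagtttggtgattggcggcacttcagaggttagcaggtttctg

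The Hspe1 window held 3 overlapping matches to the heat shock cores, starting 89, 84 and 79 bases before the start. Hspd1 has 2 windows for 2 annotated starts. Its start at the second window lies 216 bases from that of Hspe1 on the opposite strand, and that window shares 285 bases with the Hspe1 window, so the same 3 matches and the same TGCAAT appear in both. A heat shock core occurred in 5 of the 9 genes with a window, against 17.0% of all 27025 genes with one. The other genes were Cct2, Cct5 and Cct6a, with a single match each. It started 42 and 34 bases before and 24 bases after the start, in that order. The last lies outside the 250 bases before the start. Cct2 and Cct5 also have 2 windows each, and the other window of each held no match. Hspd1 and Hspe1 were counted separately although they share the matched DNA. An E-box was found in 1 of the 9 genes, the first window of Hspd1, 80 bases before that start, against 8.09% of all genes. That Hspd1 start lies 95 bases past the Hspe1 start on the opposite strand, so the transcripts overlap there. The E-box lies outside the Hspe1 window, with which the first Hspd1 window shares 4 bases. TGCAAT was found in 2 of the 9 genes, the shared Hspd1 and Hspe1 DNA, against 9.67% of all genes. These letter matches describe the windows and were not tested for binding.

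All 10 chaperonin genes had lower mean signal in KO than in WT, and 3 of them, the TRiC subunit genes Cct6a, Cct2 and Cct3, passed the test. Cct6a was 1.43-fold lower, Cct2 1.38-fold and Cct3 1.34-fold. No member was higher. Over the 10209 genes tested, 17.1% were called lower in KO and 19.7% higher, at an adjusted p under 0.05 by limma. In bulk RNA, fewer cells of a type and less RNA per cell cannot be told apart. The median log2 fold change was -0.40 over the TRiC genes and -0.40 over Hspd1 and Hspe1, beside 0.0011 over all genes tested. In 8 of the 10 genes every KO array lay below every WT array, which held for 24.4% of all genes tested, and in 0 every KO array lay above, which held for 26.1%. For these an exact permutation test (20 ways to assign the arrays, 2-sided) gave p = 0.1, the smallest possible with 3 arrays a group, and for the other 2 it gave 0.2. No member fell by 2-fold or more, whereas 3.16% of all genes were called lower by at least that much. Without WT replicate 3 or without KO replicate 3, 1 member was called lower, beside 11.2% and 11.8% of all genes. Without KO replicate 2 there were 5, beside 13.9% of all genes.

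**Figure D1:**
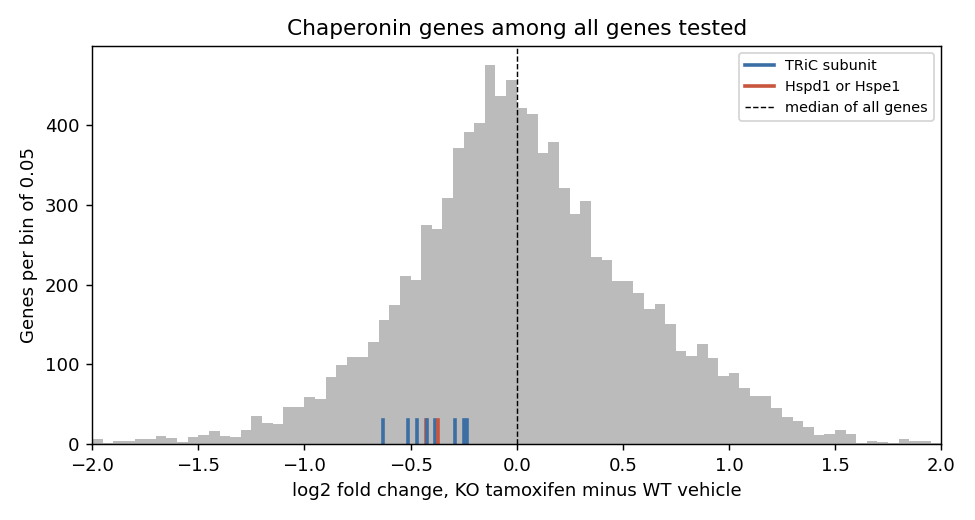
Histogram of the log2 fold change (KO tamoxifen minus WT vehicle) of all 10209 genes tested, in bins of 0.05, with the 10 chaperonin genes as short coloured lines. The chaperonins lie between -0.63 and -0.23, left of the dashed median, and well inside the spread of all genes. The axis is limited to 2 in either direction, which leaves out 44 genes.

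Signals below are normalized log2 signals of the brightest probe of a gene. The ± on a log2 fold change is its moderated standard error from limma. The variance behind it is drawn towards a value shared by all genes or probes tested. It can therefore be larger or smaller than the gene's own spread between arrays gives. A probe's signal depends on its sequence, so levels are compared between arrays and not between genes. Cct6a encodes the zeta subunit of TRiC. Its WT arrays read 13.28, 13.21 and 13.33, and its KO arrays 12.88, 12.76 and 12.65. The gap between the groups exceeded the spread within either. Cct6a fell by 0.51 ± 0.12 on the log2 scale (adjusted p = 0.0122). A further Cct6a probe read 13.14, 13.07 and 13.28 in WT and 12.78, 12.67 and 12.66 in KO, a log2 fold change of -0.46 ± 0.13 (adjusted p = 0.0239 over all kept probes). Both probes separated the groups, and Cct6a was called lower in all 16 other settings that set no minimum fold. With a minimum of 2-fold Cct6a was not called.

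Cct3, the gamma subunit gene, read 12.86, 12.98 and 13.01 in WT and 12.55, 12.54 and 12.49 in KO. The KO arrays were tightly grouped (SD 0.030, n = 3), and all lay below WT. The log2 fold change of Cct3 was -0.42 ± 0.12 (adjusted p = 0.0211). A further Cct3 probe moved alike, from 11.75, 11.60 and 11.75 in WT to 11.31, 11.09 and 11.35 in KO, at -0.45 ± 0.13 (adjusted p = 0.0320 over all kept probes). The remaining Cct3 probe, annotated to a separate cDNA sequence, was not detected on any array and was not tested. Cct3 kept its call when WT replicate 1 or KO replicate 1 was left out and lost it when any other single array was (adjusted p up to 0.0724).

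Cct2 encodes the beta subunit and is measured by a dim probe, with raw intensities of 177.8 to 256.7. It read 7.27, 7.22 and 7.20 in WT and 6.51, 6.94 and 6.85 in KO. The groups did not overlap, and KO replicate 1 was the lowest. The change was -0.47 ± 0.14 (adjusted p = 0.0323). The size and the call depended on the background correction: without it the change was -0.26 (adjusted p = 0.0521). Leaving out any array other than KO replicate 2 also ended the call (adjusted p up to 0.0979).

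The remaining TRiC genes did not pass the test. Cct5, the epsilon subunit gene, had the most negative value of the members but also the widest spread. It read 7.36, 7.07 and 7.63 in WT and 6.35, 7.17 and 6.65 in KO. KO replicate 2 lay above WT replicate 2, so the groups overlapped. The log2 fold change of Cct5 was -0.63 ± 0.23 (adjusted p = 0.0575), and -0.35 without background correction. Without KO replicate 2 it was -0.86 (adjusted p = 0.0171), and without WT replicate 2 it was -0.77 (adjusted p = 0.0428). Cct8, the theta subunit gene, read 12.55, 12.43 and 12.53 in WT and 11.89, 12.27 and 12.20 in KO. All KO arrays were below WT, KO replicate 1 by the most. Its change was -0.38 ± 0.14 (adjusted p = 0.0567).

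Cct7 encodes the eta subunit. It read 6.69, 6.86 and 6.80 in WT and 6.44, 6.67 and 6.37 in KO. KO replicate 2 was only just below the lowest WT array. The change was -0.29 ± 0.13 (adjusted p = 0.116; 95% interval -0.59 to 0.0083), and -0.14 without background correction. Cct4, the delta subunit gene, read 13.09, 13.10 and 13.05 in WT and 12.84, 12.77 and 12.88 in KO. The groups were well apart relative to their own spread (SD 0.026 in WT and 0.055 in KO). With the moderated standard error the change was -0.25 ± 0.11 (adjusted p = 0.116, 95% interval -0.51 to 0.0076). With trend and robust eBayes, another variance model, Cct4 was called at the same value (adjusted p = 0.0363). With arrays scaled to the same median in place of quantile normalization, Cct4 was at -0.41 (adjusted p = 0.0479).

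Tcp1, the founding member of the family and the alpha subunit gene, gave different sizes on its 2 probes. The brightest read 12.75, 12.81 and 12.94 in WT and 12.54, 12.63 and 12.62 in KO, a change of -0.23 ± 0.12 (adjusted p = 0.153; 95% interval -0.50 to 0.035). A further Tcp1 probe read 9.34, 9.29 and 9.29 in WT and 8.07, 8.67 and 8.49 in KO. That probe fell by 0.90 ± 0.17 on the log2 scale (adjusted p = 0.00549 over all kept probes), the most negative value of any member probe. The within-array difference between the probes separated KO from WT by 0.66 (exact permutation p = 0.1, 2-sided, the smallest possible). Both are annotated to the same RefSeq transcript, and the cause of the disagreement was not tested. With the mean of both probes Tcp1 was at -0.57 (adjusted p = 0.00974).

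**Figure D2:**
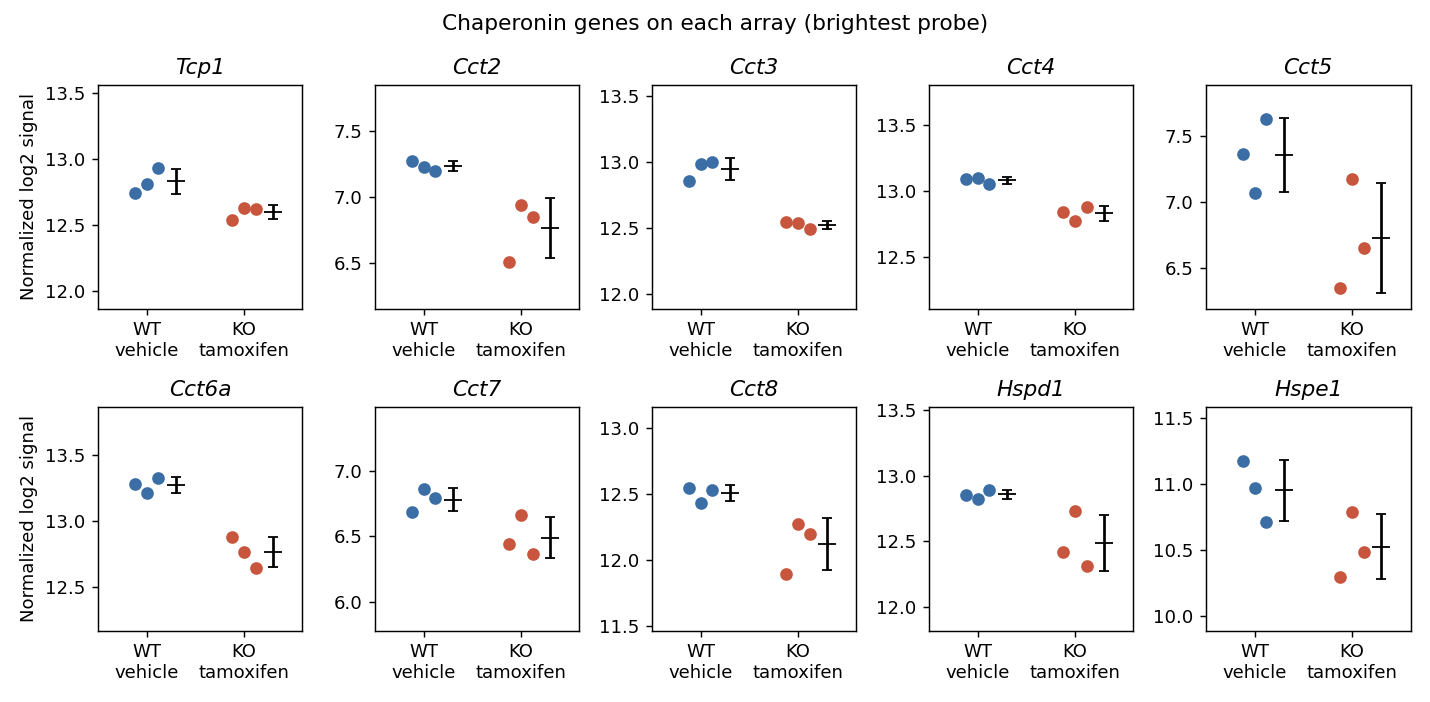
Normalized log2 signal of each chaperonin gene on each array, with WT vehicle in blue and KO tamoxifen in red, replicates 1 to 3 from left to right. Black marks are group means ± SD (n = 3), and every panel spans the same log2 range. The groups overlap for Cct5 and Hspe1.

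The mitochondrial pair had values of similar size to those of TRiC. Hspd1, which encodes HSP60, read 12.85, 12.82 and 12.89 in WT and 12.42, 12.73 and 12.32 in KO. WT was tight, and KO replicate 2 lay close to it. The change was -0.37 ± 0.14 (adjusted p = 0.0681), and -0.49 without KO replicate 2 (adjusted p = 0.0318). A further Hspd1 probe read 11.48, 11.03 and 11.24 in WT and 10.70, 10.26 and 10.37 in KO, and fell by 0.81 ± 0.17 on the log2 scale (adjusted p = 0.00900 over all kept probes). On that probe KO replicate 2 was the lowest array, not the highest of KO. The difference between the Hspd1 probes was 0.44 with overlapping groups (exact permutation p = 0.2, 2-sided). The mean of both probes gave -0.59 (adjusted p = 0.00743).

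Hspe1, which encodes HSP10, read 11.18, 10.97 and 10.71 in WT and 10.30, 10.79 and 10.49 in KO. KO replicate 2 lay above WT replicate 3, so the groups overlapped. Its change was -0.43 ± 0.17 (adjusted p = 0.0834), and -0.56 without KO replicate 2 (adjusted p = 0.0475). On their brightest probes Hspd1 and Hspe1 thus differed by less than either standard error. The same held for all members next to each other in order of change. The further Hspd1 probe lay lower, at -0.81 ± 0.17. A part of the shared promoter DNA in these values was not tested.

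Of the 15 member probes, 14 passed the filter, each of them detected on all 6 arrays, and all 14 had negative changes. Of these, 7 probes of 5 genes were called lower and 0 higher, where 16.5% of the 19082 kept probes were called lower. The groups did not overlap on 12 of the 14, compared with 24.6% of kept probes. The brightest minus the further probe's change was 0.03 for Cct3 and -0.05 for Cct6a, beside the 0.66 of Tcp1 and 0.44 of Hspd1 given above. The other 6 genes have 1 probe each, so their sizes could not be compared across probes.

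**Figure D3:**
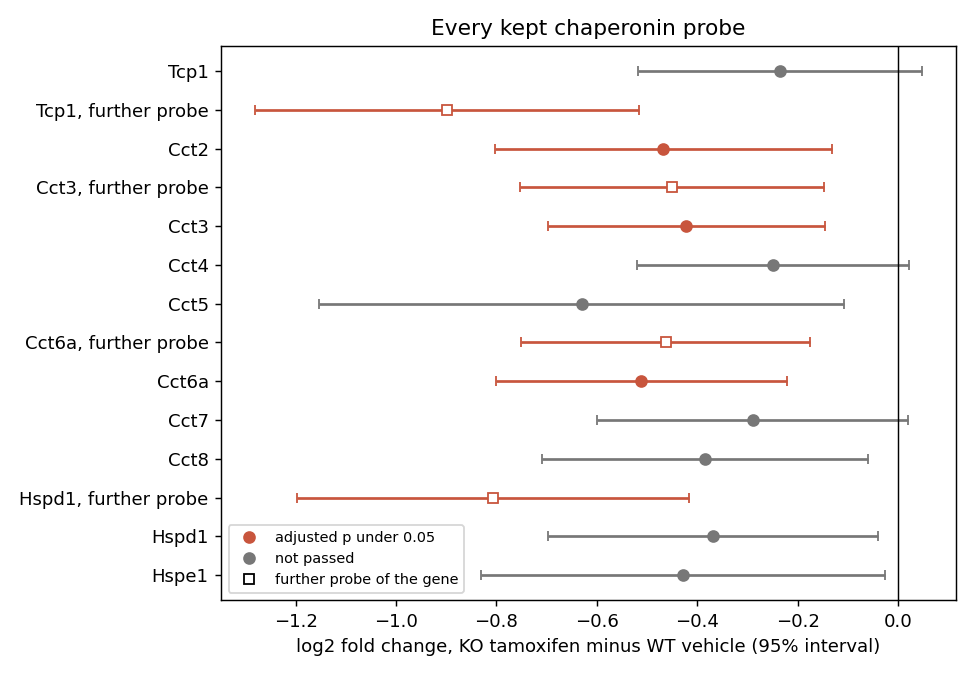
Log2 fold change (KO tamoxifen minus WT vehicle) with its 95% interval for the 14 kept chaperonin probes, tested among all kept probes. Filled circles are the brightest probe of a gene and open squares further probes. All points lie below 0, and the further probes of Tcp1 and Hspd1 have the most negative values.

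Placed in order, the gene changes ran from Cct5 at -0.63 through Cct6a, Cct2, Hspe1, Cct3, Cct8, Hspd1, Cct7 and Cct4 to Tcp1 at -0.23. Each step between neighbours was smaller than the moderated standard error of either. Differences between genes within arrays were not tested, so no ranking of adjacent subunits is given. Between 9.96% (Cct5) and 30.0% (Tcp1) of all genes tested had a more negative change. The order depended on the background correction of dim probes, those of Cct5 (raw intensities 169.8 to 292.0), Cct2 (177.8 to 256.7) and Cct7 (173.9 to 226.3). Without that correction Cct6a was at -0.51, Cct5 at -0.35, Cct2 at -0.26 and Cct7 at -0.14. The mean deviation of the TRiC genes from their WT means was -0.50, -0.28 and -0.41 on KO replicates 1, 2 and 3, while WT arrays lay between -0.04 and 0.06. For Hspd1 and Hspe1 the mean deviation was -0.55, -0.15 and -0.50 in KO and 0.11, -0.01 and -0.10 in WT. KO replicate 2 thus sat nearest to WT for both machines, and it was the highest KO array in 7 of the 10 genes. Myc itself read 8.95, 8.75 and 9.04 in WT and 7.42, 6.95 and 7.11 in KO, a fall by 1.75 ± 0.16 on the log2 scale (adjusted p = 0.000406). The lowest Myc array was KO replicate 2, at 6.95 beside 7.11 on KO replicate 3. Most chaperonin genes read highest within KO on KO replicate 2 by their brightest probe. Of the further probes, those of Cct3 and Hspd1 read lowest there, that of Tcp1 highest and that of Cct6a between. A relation between Myc and the chaperonins across the KO arrays was not tested.

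Over the 6 arrays, the genes outside the members whose signal followed the mean of the TRiC genes most closely were Vrk1 (Pearson's r = 0.998), Tex30 (0.998), Stard7 (0.997), Zfp644 (0.997) and Nek9 (0.994). These r describe 6 arrays that fall into 2 groups and were picked as the highest among all genes. The changes of these genes ran from -0.65 for Tex30 to -0.30 for Vrk1. The members' own r with the mean of the other TRiC genes ran from 0.791 for Hspe1 to 0.931 for Cct8.

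The cofactors and substrates of the chaperonins were counted next. Among 7 lists, 45 genes were tested, of which 3 were called lower and 1 higher, at a median of -0.08. Over all genes tested, 17.1% were called lower and 19.7% higher, which are the shares to set beside each list below. Prefoldin hands unfolded actin and tubulin to TRiC. Of its 6 subunit genes 4 were tested and 0 passed in either direction, with Pfdn5 at 0.29 ± 0.13 (adjusted p = 0.106) and Pfdn4 at -0.21 ± 0.13 (adjusted p = 0.248). Phosducin-like proteins bind TRiC and assist it, and of 3 listed genes 2 were tested and 0 passed, with Pdcl at -0.12 ± 0.15 and Pdcl3 at -0.06 ± 0.18. Among 5 chaperonin-like relatives 3 were tested and 0 passed. The values nearest to the threshold there were Bbs10 at -0.36 ± 0.13 (adjusted p = 0.0618) and Mkks at 0.05 ± 0.13, both genes of the complex that helps assemble the BBSome of cilia. Cct6b, a relative of Cct6a known from testis, was not detected on any array.

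Substrate genes had values on both sides of 0. Of 13 actin and tubulin genes 9 were tested, with 0 lower and 1 higher, at a median of -0.06. Of all genes tested, 17.1% were called lower and 19.7% higher. The alpha-tubulin gene Tuba4a rose, from 6.25, 6.68 and 5.77 in WT to 6.92, 6.87 and 7.30 in KO, by 0.80 ± 0.23 (adjusted p = 0.0257). Its KO arrays all lay above WT. Of 6 genes for tubulin folding cofactors, which act after TRiC, 4 were tested and 0 passed. Tbca was at -0.25 ± 0.12 (adjusted p = 0.129) and Arl2 at 0.38 ± 0.19 (adjusted p = 0.143). All 11 genes of other known substrates were tested and 0 passed, at a median of 0.09. Closest were the cyclin gene Ccne1 at 0.55 ± 0.20 (adjusted p = 0.0560) and Cdc20, an activator of the anaphase-promoting complex, at -0.30 ± 0.12 (adjusted p = 0.0799). Names of tubulin and actin genes are uncertain, because a probe may also bind close paralogs.

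The last list holds genes that work beside HSP60 in the mitochondrial matrix, most of which did not pass the test. All 12 listed genes of matrix folding and proteolysis were tested, 3 were called lower and 0 higher, and the median was -0.29. Ppif, the matrix cyclophilin that isomerises proline bonds, read 12.25, 12.09 and 12.15 in WT and 11.59, 11.58 and 11.50 in KO. It fell by 0.60 ± 0.12 on the log2 scale (adjusted p = 0.00521). Hspa9 encodes mortalin, the matrix HSP70 that pulls in and hands on imported chains. It read 13.63, 13.68 and 13.65 in WT and 13.34, 12.92 and 12.92 in KO, a fall by 0.60 ± 0.15 (adjusted p = 0.0139). Clpx, the unfoldase of the matrix protease ClpXP, was at -0.45 ± 0.15 (adjusted p = 0.0409). The groups did not overlap for any of the 3. Both shares, 3 of 12 here and 3 of 10 among the chaperonins, stand beside the 17.1% of all genes called lower.

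**Figure D4:**
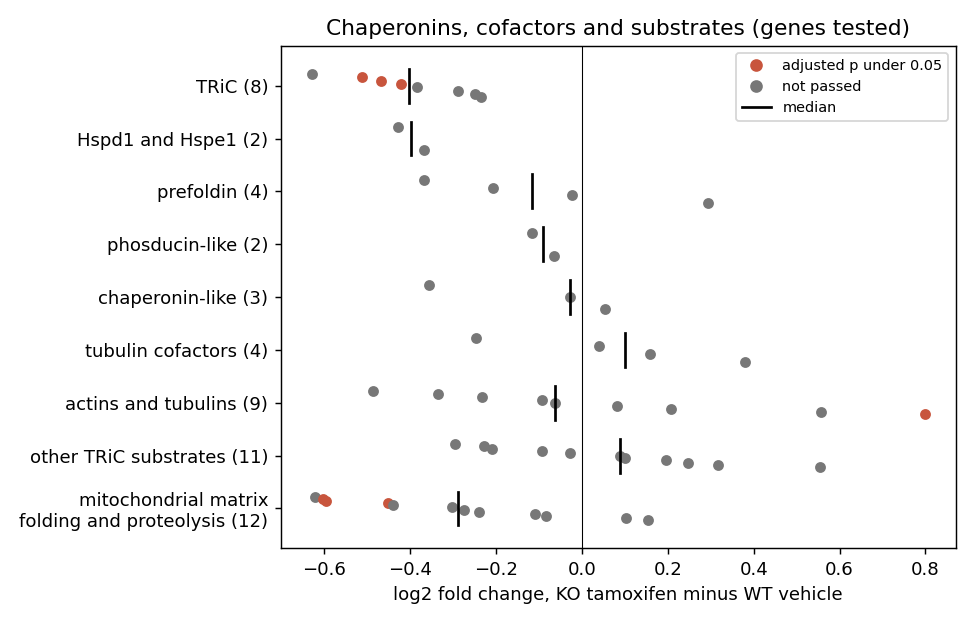
Log2 fold change (KO tamoxifen minus WT vehicle) of each tested gene in the chaperonin groups and the lists of cofactors, substrates and mitochondrial partners, with the number tested in brackets. Red points passed the test and black bars are medians. The TRiC and mitochondrial points lie mostly below 0, while the substrate lists lie on both sides.

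Arrays had 18215 to 19486 probes detected and median raw intensities of 121.8 to 132.4, and correlated across genes at r = 0.984 to 0.993 within groups and 0.950 to 0.969 between them. Some markers of several cell types were called, where 17.1% of all genes tested were called lower and 19.7% higher. Of the 9 T cell markers 7 were tested, and their summed signal was 36885 to 39880 in WT and 35734 to 36088 in KO. The 2 called lower were Ptcra at -1.94 ± 0.20 and Rag1 at -2.80 ± 0.20. Cd3d, Cd3e, Cd3g, Cd4 and Cd8b1 did not pass, at -0.16, -0.05, 0.10, 0.07 and -0.17 in that order. Of 6 myeloid markers 4 were tested and 2 rose (sum 6445 to 8458 in WT and 9389.55 to 18011 in KO), and of 5 markers of stroma and endothelium 4 were tested and 3 rose (1067.5 to 1195 and 1575 to 2199). Erythroid markers had 2 of 5 tested and 1 risen (31108 to 33851 and 37678 to 44330.1), and B cell markers 1 of 4 tested and 0 passed (227 to 430.5 and 197 to 869). Of 5 markers of dividing cells 3 were tested and 0 passed (9443 to 9956 and 8725 to 10847). Cd8a, Epb42, Itgam and Epcam were not detected on any array. The part of these shifts in the chaperonin values was not tested.

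**Figure D5:**
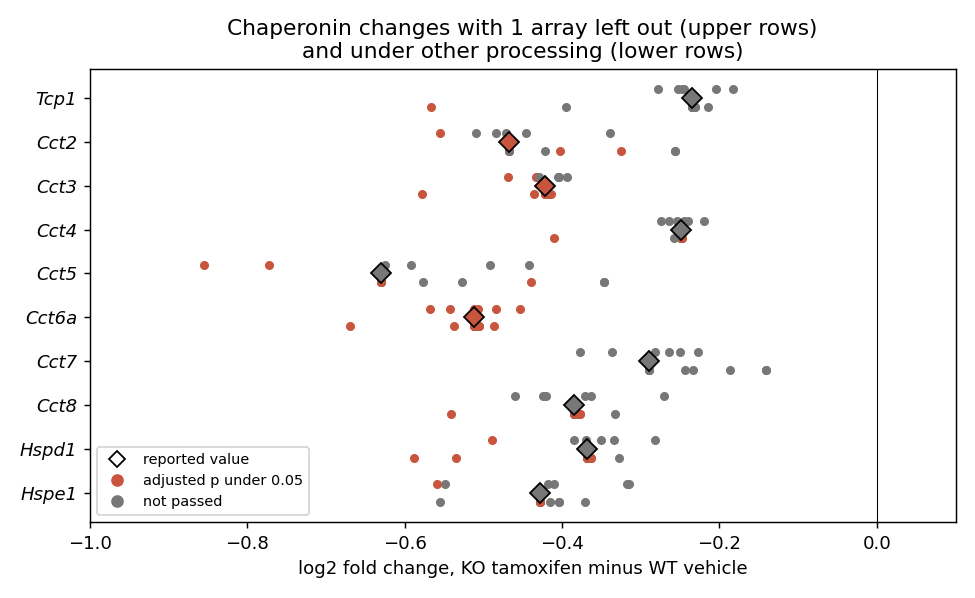
Log2 fold change of each chaperonin gene as reported (diamonds), with 1 array left out (upper row of points) and under other processing (lower row). Red marks passed the test. All values are below 0, while the colour of every gene except Cct6a and Cct7 changes between settings.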

How the data were processed

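Biotin-labelled total RNA from 6 mice was measured on 1 array each, per the labels. The deposited raw table holds an intensity for each probe on each array, with a detection p-value beside it, per the file headers. The deposited intensities carry no background subtraction, since the lowest are 89.7 to 95.1, and no common scale. A second deposited table holds log2 values, which equal the quantile-normalized log2 intensities within 5e-05. The scanner software is not given in the sources used here, and 0 columns of per-sample values were left aside.

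Intensities were normalized with neqc in limma 3.58.1 (R 4.3.3): background correction from the detection p-values, an offset of 16, quantile normalization and log2. Probes detected at p under 0.05 on at least 3 arrays were kept (19082). A gene, named by the platform annotation (1 symbol for 34885 probes, several for 18, none for 10378) and updated through RefSeq gene identifiers (34807 matched), was represented by its brightest kept probe. Each of the 10209 genes was tested for a difference of KO tamoxifen from WT vehicle (lmFit and eBayes, both directions, Benjamini-Hochberg adjustment), and all kept probes likewise. The fit was tested on simulated data. The number of arrays limits the precision. The limma p-values use a variance that combines a gene's spread between these mice with a value shared by all genes tested.

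Named were all members, Myc, the called genes of largest change in each list (up to 4, or otherwise the 2 of smallest p), and the 5 genes most like the TRiC mean. The members and lists were chosen with earlier results of these data known. Samples with the same replicate number correlated at 0.17, 0.12 and -0.08 after removal of group means, so the numbers were not taken to pair the mice. Alternatives were other background corrections, scaling, the deposited log2 table, other filters, the mean of a gene's probes, a replicate block, other variance models, a minimum of 2-fold, and single arrays left out. Promoters were read from the RefSeq table of build GRCm38.p6, and figures drawn with matplotlib 3.10.9.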

Additional observations from a re-analysis of the deposited data

How the results depend on the processing

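All 170 member values, as reported and under 16 alternatives, were negative. Calls were less stable. The reported 3 members called lower (17.1% of all genes) became 5 with no background correction (18.2%), 6 with normexp lacking control information (18.1%), 5 with arrays scaled to the same median (17.6%), 5 with the deposited log2 table (18.2%), 5 with probes averaged per gene (18.1%), 7 with trend and robust eBayes (18.4%) and 0 at 2-fold or more (3.16%). With single arrays left out the count was 1 to 5 genes and 2 to 6 probes, while 11.2% to 18.0% of all genes were called lower. The 7 called probes became 11 with trend and robust eBayes. The cause of these shifts was not tested.

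By gene, Cct2 lost its call with no background correction (-0.26, adjusted p = 0.0521), same-median scaling (-0.42, 0.107), the deposited log2 table (-0.26) and trend and robust eBayes (-0.47, 0.0562). Calls were gained with no background correction by Cct4 (-0.25), Cct8 (-0.38) and Hspd1 (-0.36), and at the same values with the deposited log2 table. With normexp, Cct5 (-0.44), Cct8 (-0.38) and Hspd1 (-0.37) gained calls. Same-median scaling, which moved the median of all genes to -0.05, added Cct4 (-0.41), Cct8 (-0.54) and Hspd1 (-0.53), and detection on all 6 arrays added Cct8 (-0.38). The mean of probes added Tcp1 (-0.57) and Hspd1 (-0.59). Trend and robust eBayes, at unchanged values, added Cct4 (-0.25), Cct5 (-0.63), Cct8 (-0.38), Hspd1 (-0.37) and Hspe1 (-0.43).

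With single arrays left out, Cct2 ranged from -0.55 to -0.34, Cct3 from -0.47 to -0.39, Cct5 from -0.86 to -0.44, Hspd1 from -0.49 to -0.28 and Hspe1 from -0.56 to -0.31. The median of the TRiC genes ranged from -0.44 to -0.30 and that of Hspd1 and Hspe1 from -0.52 to -0.32. With a replicate block the count of called members was 3, called probes were 5, and not every array correlated best with the same number in the other group. The sizes of the dim probes of Cct2, Cct5 and Cct7 depend on the background correction.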
